A study of Mus musculus with 12 samples.

Results

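The gene expression difference between mouse retinas with laser-induced choroidal neovascularisation (CNV) and unlasered wild-type (WT) retinas was measured over both intravitreal injections of the study. All 12 libraries of the series entered the comparison, 6 CNV and 6 WT, chosen by their labels alone. The CNV libraries came from C57BL/6J mice with laser-induced CNV, 3 injected with vehicle (0.5X PBS) and 3 with cp-asiNRL. The WT libraries came from unlasered C57BL/6J mice, again 3 with vehicle and 3 with cp-asiNRL. The second agent, given as 1 µl of 6 µg/µl, is an asymmetric siRNA made to enter cells and to lower Nrl, the transcription factor that sets the rod fate. Every eye in the comparison had therefore received an injection, and no uninjected retina was analysed here. The labels give the tissue as retina, and give no age, sex, interval after the laser or number of animals per library, so the tests measure the spread between these libraries. The model held injection as an additive term, so that each CNV library was set against WT libraries of the same injection.

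In this mouse model a laser burn breaks the membrane under the pigment epithelium, and choroidal vessels grow through the break toward the retina. Müller glia, the radial glia that span the retina, answer injury by raising intermediate filaments and acute phase proteins downstream of Stat3. Microglia, the resident phagocytes, supply complement C1q and the class II machinery. Photoreceptors burn glucose largely to lactate and need sterols for their membranes. Cells that hold enough sterol shut down the sterol synthesis genes, which the SREBP2 factor drives, and cells loaded with oxidised sterol switch on the efflux pump Abca1 through the liver X receptor.

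Reads in genes numbered 51298466 to 69394486 per library, and levels are given as CPM, in which the reads of a gene are scaled to the reads in all genes of the library. The retina label was checked against 18 rod genes, which summed to 17250 to 27640 CPM in CNV and 23410 to 30240 CPM in WT retina. The libraries of a group were uneven. On the first principal component, which held 52.2% of the variance, CNV cp-asiNRL replicate 3 (39.1), CNV cp-asiNRL replicate 1 (28.2) and CNV vehicle replicate 2 (12.04) had the highest values. CNV vehicle replicate 1 (-8.87), CNV vehicle replicate 3 (-5.70) and CNV cp-asiNRL replicate 2 (-5.69) lay within the range of the WT libraries. WT cp-asiNRL replicate 1 (6.15) lay above the other 5 WT libraries (-17.2 to -8.90). Results that rest on these libraries are therefore given with and without CNV cp-asiNRL replicate 2, and also without both it and WT cp-asiNRL replicate 1. Both were picked for their expression in these data, while CNV vehicle replicates 1 and 3, with values as low, were kept. A CNV library that resembles WT lowers the laser change, so larger counts without it follow from that choice and are no separate support. In bulk RNA, fewer cells of a type and less RNA per cell cannot be told apart.

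With all libraries weighted alike, limma called 0 of 25619 genes higher (0%) and 1 lower (0.0039%) after the laser at an adjusted p of 0.05. At an unadjusted p of 0.05 the same fit had 2799 genes higher (10.9%) and 1531 lower (5.98%). limma voom with sample weights counts a library less the further it strays from the fitted model, and uses no measured quality of the library. It called 890 genes higher (3.47%) and 296 lower (1.16%), and 1183 and 635 with trimmed-mean scaling. That fit, called the weighted fit below, gave CNV vehicle replicate 1 and CNV cp-asiNRL replicate 2 the lowest weights, 0.430 and 0.433, against 1.78 for WT cp-asiNRL replicate 1. Without CNV cp-asiNRL replicate 2 limma with equal weights called 1620 genes higher (6.32%) and 582 lower (2.27%), and without both libraries 1121 higher (4.38%) and 347 lower (1.35%). Of the 890 and 296 genes of the weighted fit, 818 and 275 were also called without CNV cp-asiNRL replicate 2. Both fits share the other libraries, and the weighted fit already gave this library a low weight, so the overlap is no independent check. Below, a log2 change is that of the unweighted fit on log2(CPM + 1), which understates changes of genes with few reads, and a gene is said to rise or fall only with the fit that called it. All 6 CNV libraries lay above all 6 WT libraries for 79 genes (0.308%) and below them for 108 (0.422%). CNV and WT libraries were apart in the same direction within the vehicle and within the cp-asiNRL libraries for 195 genes higher (0.761%) and 287 lower (1.12%). These last genes are called apart within each injection.

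**Figure D1:**
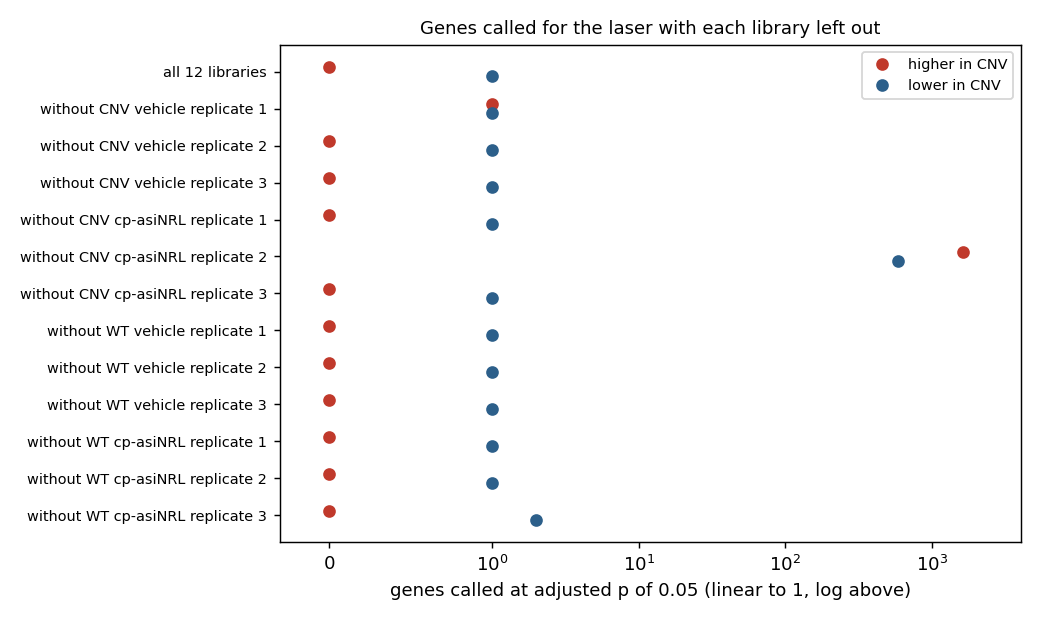
Number of genes called for the laser by the unweighted limma fit at an adjusted p of 0.05 (horizontal axis, linear to 1 and logarithmic above) with all 12 libraries and with each library left out (rows), red for genes higher in CNV and blue for genes lower in CNV. Leaving out CNV cp-asiNRL replicate 2 gave 1621 higher and 582 lower genes with the low-value filter reapplied, and leaving out any other library gave at most 1 higher and 2 lower.

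The gene that passed with all libraries weighted alike was Gm30589, a gene model on chromosome 4 (62352842 to 62362088, plus strand, GRCm39). It spanned 1.34 to 2.14 CPM (median 1.64) in CNV and 2.48 to 3.18 CPM (median 2.98) in WT retina. Each of the 6 CNV libraries lay below each of the 6 WT libraries. The log2 change over both was -0.56 (SE 0.063, limma adjusted p = 0.00685), and the adjusted p was 0.0608 with no filter and 0.0609 with no injection term. Its log2 change was -0.58 under vehicle and -0.54 under cp-asiNRL. It overlaps Rnf183 on the other strand, and the reads of overlapping genes could not be separated in these counts. Of the 83 genes named by rule, 29 overlap a gene on the other strand, and the annotated partners of main members are given beside them. Its neighbour Wdr31 on the minus strand, picked after its values were seen, spanned 42.2 to 64.9 CPM (median 56.2) in CNV and 62.1 to 85.2 CPM (median 69.8) in WT retina, with a log2 change of -0.35 (limma adjusted p = 0.096). Between adjusted p values of 0.05 and 0.1 lay the sterol genes. Of 20 genes under 0.1 (0.0781%), 17 were lower and 3 higher in CNV retina, and 8 belonged to the cholesterol synthesis list.

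All 19 tested members of the cholesterol synthesis list were lower in CNV than in WT retina, with a median log2 change of -0.20 against 0.02 over all genes tested. Of all 25619 genes tested 10962 were below 0 and 14657 above 0. In the weighted fit 12 of the 19 fell and 0 rose, against 1.16% and 3.47% of all genes. In the unweighted fit 15 were lower at an unadjusted p of 0.05, against 5.98% of all genes. Without CNV cp-asiNRL replicate 2, and without both uneven libraries, 13 fell, against 2.27% and 1.35% of all genes in those fits. CNV and WT libraries were apart within each injection for 6 of the 19, against 1.12% of all genes. The list median was -0.29 under vehicle and -0.14 under cp-asiNRL, with 16 members below 0 under both. The members are given in the order of the pathway.

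Hmgcs1, the synthase that makes HMG-CoA for sterol synthesis, spanned 52.8 to 73.1 CPM (median 62.7) in CNV and 64.3 to 89.4 CPM (median 80.6) in WT retina, and fell in the weighted fit (log2 change -0.34, SE 0.056; weighted limma adjusted p = 0.0149). Its CNV and WT ranges over all libraries overlapped, while within each injection every CNV library lay below every WT library. Idi1, the isomerase of the isoprenoid units, spanned 9.36 to 12.8 CPM (median 11) in CNV and 11.4 to 15.7 CPM (median 14.5) in WT retina (log2 change -0.33). Fdps, which joins those units into farnesyl diphosphate, spanned 5.47 to 7.61 CPM (median 6.64) in CNV and 7.92 to 11.7 CPM (median 9.25) in WT retina. Fdps was the member of the list whose 6 CNV libraries lay below all 6 WT libraries (log2 change -0.47, SE 0.081; weighted limma adjusted p = 0.0149). The late enzymes Cyp51 and Msmo1, which take methyl groups off the sterol ring, also fell in the weighted fit. Msmo1 spanned 23.3 to 31.9 CPM (median 27.9) in CNV and 30.7 to 38.6 CPM (median 35) in WT retina (log2 change -0.32, weighted limma adjusted p = 0.0149), and Cyp51 spanned 34.6 to 42.2 CPM (median 38.9) in CNV and 40.9 to 51 CPM (median 48.1) in WT retina (-0.29). Acat2, a thiolase at the head of the pathway that was not on the list, had 12.3 to 14.3 CPM (median 13.7) in CNV and 15.8 to 18.9 CPM (median 16.2) in WT retina, with no overlap (log2 change -0.30, weighted limma adjusted p = 0.0149).

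Outside the enzyme chain, Srebf2, the factor itself, had a log2 change of -0.10 (weighted limma adjusted p = 0.235). Insig1, which holds the SREBP escort protein in the endoplasmic reticulum, spanned 31.3 to 42 CPM (median 38.8) in CNV and 38.8 to 57.7 CPM (median 50.5) in WT retina and fell in the weighted fit (log2 change -0.40, weighted limma adjusted p = 0.0149), and overlaps Gm35223 on the other strand. The members nearest to 0 were Pmvk (-0.012) and Mvk (-0.038), the kinases of mevalonate and its phosphate, which were picked after their values were seen and did not pass in either fit. On the efflux side, Abca1 spanned 76.9 to 166 CPM (median 121) in CNV and 50.2 to 86.9 CPM (median 59.8) in WT retina and rose in the weighted fit (log2 change 0.89, SE 0.17; weighted limma adjusted p = 0.0149). Abca1 was at 160.3 CPM in CNV vehicle replicate 2 and at 155 and 166 CPM in CNV cp-asiNRL replicates 1 and 3. The other 3 CNV libraries had 76.9 to 86.8 CPM, and WT cp-asiNRL replicate 1, the highest WT library, had 86.9 CPM. A list of 15 sterol efflux and liver X receptor genes was chosen after these values were seen and includes Abca1 and Apoe. It had 3 members higher and 0 lower in the weighted fit, against 3.47% and 1.16% of all genes. Its median log2 change was 0.08. Because the list holds the gene that led to it, its count is no separate support.

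**Figure D2:**
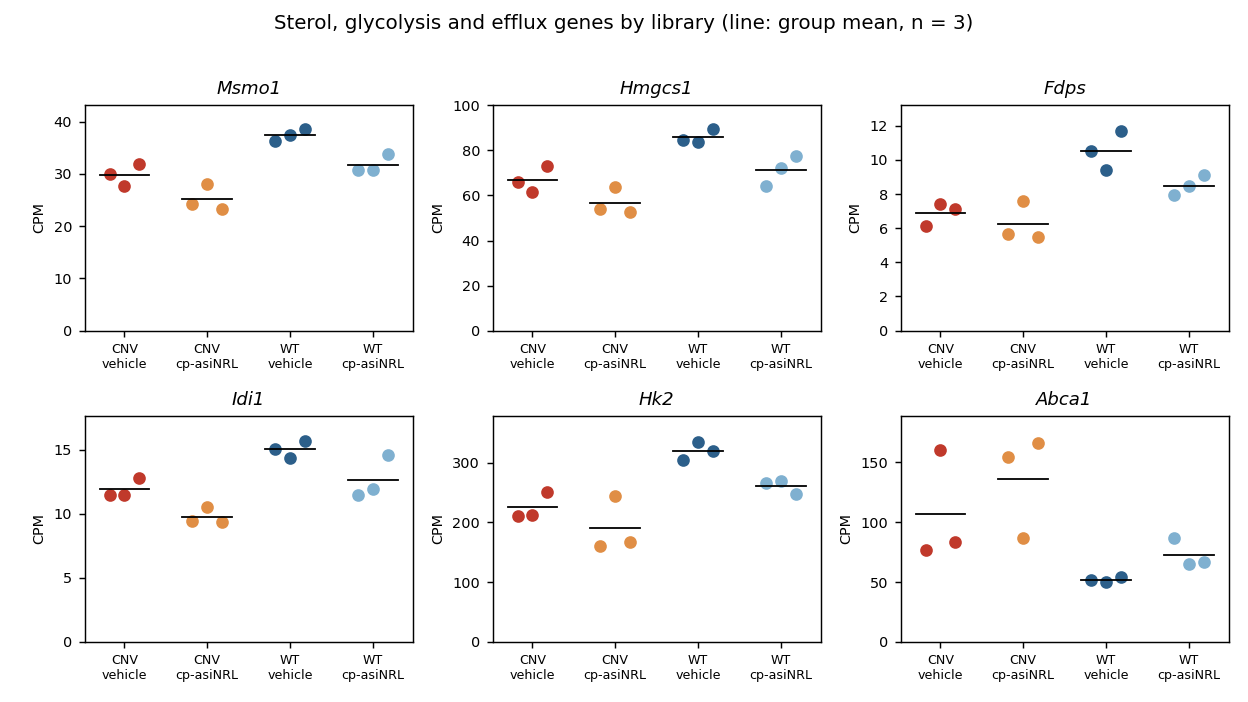
Level in CPM (vertical axes, from 0) of 4 sterol genes, the hexokinase Hk2 and the efflux pump Abca1 in each library, CNV groups left of WT groups, with points for libraries in replicate order and a line for the mean of 3. Within each injection the CNV points of Msmo1, Hmgcs1, Fdps, Idi1 and Hk2 lie below the WT points, and 3 CNV libraries stand high for Abca1.

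Some glycolysis genes also fell in the weighted fit. Hk2, the hexokinase of photoreceptors, spanned 160 to 251 CPM (median 212) in CNV and 248 to 335 CPM (median 288) in WT retina. Each CNV library was below each WT library of the same injection, and over both injections 1 CNV library (251 CPM) lay above the lowest WT library. Its log2 change was -0.49 (SE 0.083; limma adjusted p = 0.087 unweighted, 0.00953 weighted, 0.00031 without CNV cp-asiNRL replicate 2). Pkm, the last enzyme of glycolysis, spanned 522 to 680.5 CPM (median 606) in CNV and 629 to 821 CPM (median 714) in WT retina (log2 change -0.25, weighted limma adjusted p = 0.0149). Pgk1 and Ldha, which yield ATP and lactate, had log2 changes of -0.27 and -0.21 (weighted limma adjusted p = 0.015 and 0.021). Of 21 glycolysis and lactate transport genes, a list chosen after these values were seen, 7 fell and 0 rose in the weighted fit (against 1.16% and 3.47% of all genes), and 4 were above 0. The list's median log2 change was -0.10, with -0.20 under vehicle, -0.044 under cp-asiNRL and -0.16 without CNV cp-asiNRL replicate 2. At an unadjusted limma p of 0.05, 14 of the 21 were lower under vehicle, against 1033 of all 25619 genes. Under cp-asiNRL 4 were lower and 1 higher, against 1091 and 2403 of all genes. The interaction of laser and injection had an unadjusted limma p under 0.05 for 8 of the 21, against 6.63% of all genes. It was called for 0 genes after adjustment. Hk1 (0.045) and Eno2 (-0.031), other members of the list that were picked after their values were seen, had log2 changes near 0. The rod markers summed to 17250 to 27640 CPM in CNV and 23410 to 30240 CPM in WT retina, and their part in the sterol and glycolysis values was not tested. The other named genes below WT were Cdc5l, a splicing factor, and Polh, the polymerase that copies past ultraviolet damage. Cdc5l spanned 32.2 to 37.8 CPM (median 34.2) in CNV and 37.6 to 42.1 CPM (median 40.2) in WT retina (log2 change -0.21), and Polh spanned 14.1 to 15.6 CPM (median 14.4) in CNV and 16.2 to 18.6 CPM (median 17.1) in WT retina (-0.24), both called lower in the weighted fit (limma adjusted p = 0.0149 and 0.0191).

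The 12 higher genes with the smallest p were picked by rule. Each needed more than a bare model name, a mean log2(CPM + 1) of 1 or more and the same sign under both injections. All 12 rose in the weighted fit and were of several kinds, Abca1 among them. Fth1, the iron-storing ferritin heavy chain, spanned 27.1 to 31.1 CPM (median 29) in CNV and 22.5 to 26.8 CPM (median 23.9) in WT retina with no overlap (log2 change 0.27, SE 0.044; weighted limma adjusted p = 0.0149). Ferritin has near-identical processed copies elsewhere in the genome, and its count is uncertain for that reason. Dusp6, the phosphatase that is induced by and restrains ERK signalling, spanned 10 to 13.8 CPM (median 10.7) in CNV and 7.6 to 9.06 CPM (median 7.96) in WT retina, again with no overlap, and overlaps Gm34921 on the other strand (log2 change 0.41, SE 0.071; weighted limma adjusted p = 0.0149). Lrrc8c, a subunit of volume-regulated anion channels, spanned 20.2 to 29.9 CPM (median 24.1) in CNV and 13.3 to 19.4 CPM (median 17) in WT retina (log2 change 0.53). F3, tissue factor of the clotting cascade, spanned 2.94 to 4.76 CPM (median 3.77) in CNV and 2.51 to 2.94 CPM (median 2.68) in WT retina, with no overlap before rounding (0.37). Gckr, the glucokinase regulator, and Atp10a, a lipid flippase, also had CNV libraries wholly above WT libraries, with log2 changes of 0.28 and 0.20. Ltbp1, a matrix store of latent TGF-beta, and Ccn2, a matrix protein induced by TGF-beta and YAP, had log2 changes of 0.37 and 0.56 and overlapped between the groups. Slc16a12, a monocarboxylate carrier, spanned 2.04 to 3.42 CPM (median 2.58) in CNV and 1.22 to 2.16 CPM (median 1.6) in WT retina (log2 change 0.48). Ankrd44 changed by 0.18. Ifi27l2a, an interferon-induced gene, changed by 0.73, and it overlaps its relative Ifi27 on the other strand.

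The reactive gliosis list had larger shifts and a wider spread. All 20 tested members were higher in CNV retina, against 14657 of all 25619 genes, with a median log2 change of 0.53. Of the 20 members 11 rose and 0 fell in the weighted fit (against 3.47% and 1.16% of all genes). Gfap, the intermediate filament of reactive glia, spanned 8.25 to 43.1 CPM (median 19.4) in CNV and 5.9 to 16.3 CPM (median 6.49) in WT retina. CNV vehicle replicate 2 (28.2 CPM) and CNV cp-asiNRL replicates 1 and 3 (43.0 and 43.1 CPM) were high, the other 3 CNV libraries (8.25 to 10.6 CPM) lay within the WT range, and WT cp-asiNRL replicate 1 (16.3 CPM) was the highest WT library. The log2 change of Gfap was 1.18 (SE 0.34; limma adjusted p = 0.161 unweighted, 0.0343 weighted, 0.011 without CNV cp-asiNRL replicate 2). Serpina3n, a protease inhibitor of the acute phase, spanned 3.24 to 28.7 CPM (median 10.3) in CNV and 0.674 to 12.9 CPM (median 1.3) in WT retina with the same libraries high. Its log2 change was 1.76 (SE 0.50) and it passed without CNV cp-asiNRL replicate 2 (limma adjusted p = 0.0111) but not in the weighted fit (0.0526). Vim, the other filament of Müller glia, was apart within each injection at 25.9 to 53.9 CPM (median 40.3) in CNV and 24.1 to 31.8 CPM (median 25.1) in WT retina (log2 change 0.57, weighted limma adjusted p = 0.0189). Fgf2, a survival factor for photoreceptors, spanned 44.1 to 144 CPM (median 72.1) in CNV and 27.1 to 62.7 CPM (median 37.5) in WT retina (log2 change 0.95, weighted limma adjusted p = 0.029), and overlaps Nudt6 on the other strand. Lcn2, the siderophore-binding lipocalin, spanned 0.52 to 4.34 CPM (median 1.31) in CNV and 0.32 to 1.08 CPM (median 0.521) in WT retina (log2 change 0.69, weighted limma adjusted p = 0.0468).

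The Edn2, Lif and Stat3 list, which covers the signal from damaged photoreceptors to Müller glia, had 15 of 16 members above 0, against 14657 of all 25619 genes. Its median log2 change was 0.32, and 6 members rose and 0 fell in the weighted fit (against 3.47% and 1.16% of all genes). Edn2, the endothelin released by stressed photoreceptors, spanned 2.45 to 16.1 CPM (median 6.01) in CNV and 0.76 to 4.22 CPM (median 1.62) in WT retina, 3.81-fold higher as a ratio of means. Under vehicle every CNV library lay above every WT library, whereas under cp-asiNRL the lowest CNV library (3.33 CPM) was below WT cp-asiNRL replicate 1 (4.22 CPM). Its log2 change was 1.36 (SE 0.32; weighted limma adjusted p = 0.0317), and Edn2 overlaps Gm36134 on the other strand. Osmr, the oncostatin M receptor, and Stat3 itself changed by 0.78 and 0.52 (weighted limma adjusted p = 0.0349 and 0.0299). Bcl3, a nuclear partner of NF-kappaB and a Stat3 target, was apart within each injection at 1.8 to 11.6 CPM (median 5.31) in CNV and 1.01 to 2.81 CPM (median 1.41) in WT retina (1.23, weighted limma adjusted p = 0.0278). Socs3, the feedback inhibitor of Stat3, had a log2 change of 0.92 and did not pass (weighted limma adjusted p = 0.0547). In the exact two-sided permutation test of the laser label within each injection, with 400 assignments and a smallest possible p of 0.005, Edn2 and Fgf2 had p = 0.01 and Stat3 0.02. Lcn2 had p = 0.025, Gfap 0.035 and Serpina3n 0.04 in the exact permutation test. Over the 18 genes so tested the smallest adjusted p was 0.072 (exact permutation), so none passed 0.05 after adjustment.

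**Figure D3:**
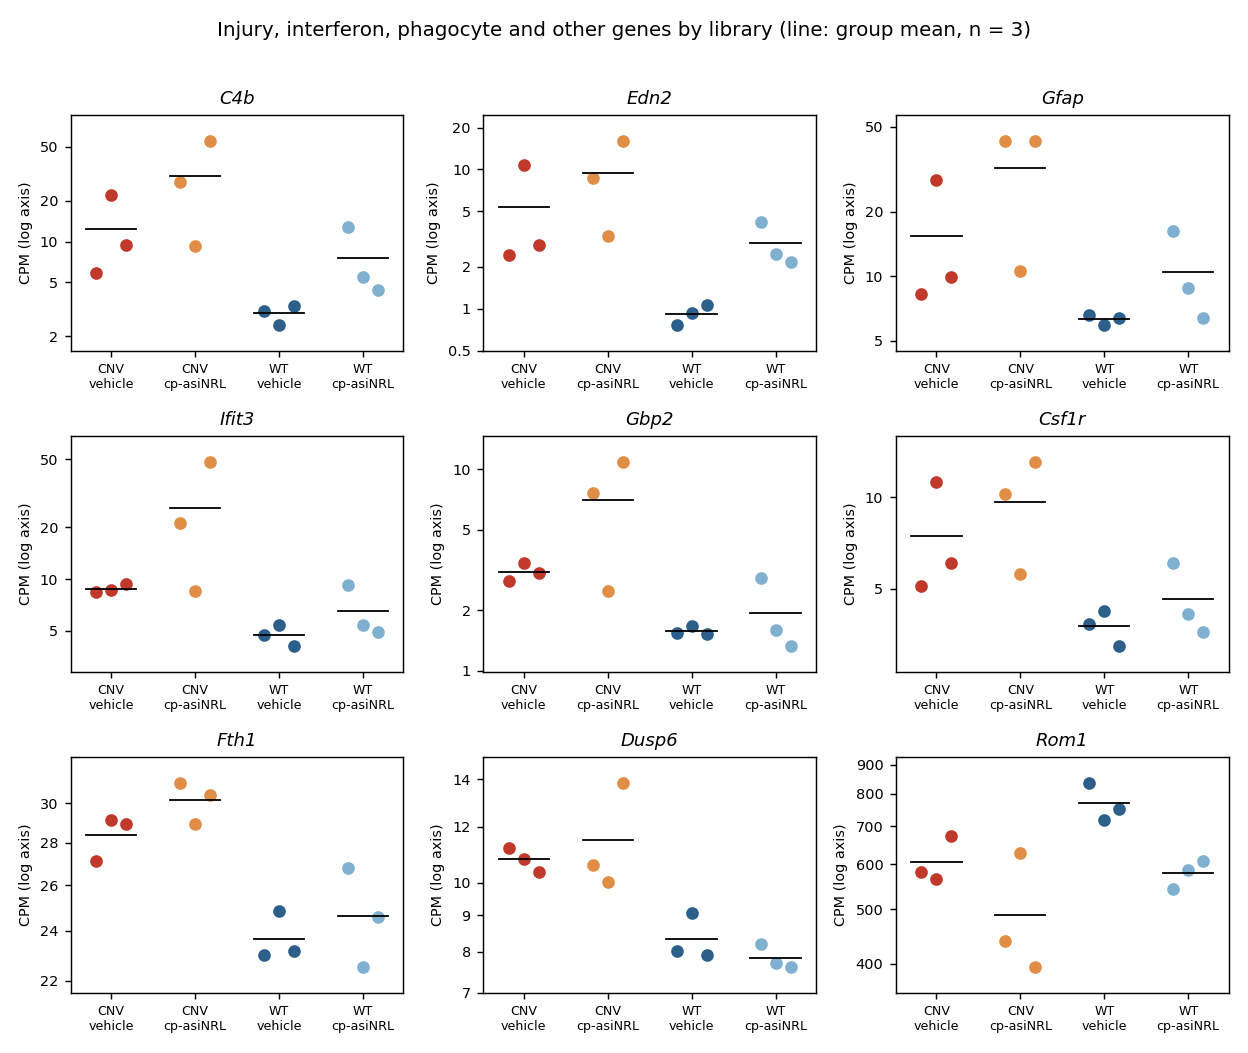
Level in CPM (vertical log axes) of 9 named genes in each library, CNV groups left of WT groups, with points for libraries in replicate order and a line for the mean of 3. For C4b, Edn2, Gfap and Csf1r CNV vehicle replicate 2 and CNV cp-asiNRL replicates 1 and 3 are high, for Fth1 and Dusp6 all 6 CNV libraries are above all WT libraries, and for Rom1 the CNV and WT points overlap.

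Complement and phagocyte genes were higher in the same libraries. Of 17 complement genes 8 rose and 0 fell in the weighted fit (against 3.47% and 1.16% of all genes), with a median log2 change of 0.38. C4b, the component cleaved by C1, spanned 5.84 to 55.4 CPM (median 15.7) in CNV and 2.42 to 12.9 CPM (median 3.9) in WT retina (log2 change 1.64, SE 0.36; weighted limma adjusted p = 0.0276). C1qb, a chain of the recognition molecule that microglia make, spanned 1.78 to 10.8 CPM (median 5.22) in CNV and 0.916 to 4.13 CPM (median 1.18) in WT retina (log2 change 1.23, weighted limma adjusted p = 0.0297). C3, the central component, spanned 0.372 to 5.26 CPM (median 2.11) in CNV and 0.318 to 0.935 CPM (median 0.525) in WT retina, with a log2 change of 0.94 that did not pass (weighted limma adjusted p = 0.0667). All 16 microglia identity genes were above 0, against 14657 of all 25619 genes (median log2 change 0.29), and 7 rose in the weighted fit. Csf1r, the receptor that keeps microglia alive, spanned 5.1 to 13.1 CPM (median 8.16) in CNV and 3.23 to 6.09 CPM (median 3.98) in WT retina (log2 change 0.83, weighted limma adjusted p = 0.0238), and the fractalkine receptor Cx3cr1 changed by 0.81 (0.024). Selplg, the selectin ligand, was at 0.922 to 1.96 CPM (median 1.07) in CNV and 0.452 to 0.807 CPM (median 0.624) in WT retina, with no overlap but few reads. Of 20 phagocyte activation genes 6 rose and 0 fell, with a median log2 change of 0.62. Apoe, the lipid carrier of glia and phagocytes, spanned 129.6 to 632 CPM (median 288) in CNV and 115 to 225 CPM (median 135) in WT retina (log2 change 0.97, weighted limma adjusted p = 0.0278). Ctss, a lysosomal protease of phagocytes, and Fcgr1, the high-affinity IgG receptor, changed by 1.19 and 0.61 (weighted limma adjusted p = 0.0456 and 0.029).

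Markers of blood cells were near the floor. The 15 monocyte and neutrophil genes summed to 1.75 to 5 CPM in CNV and 1.25 to 2.88 CPM in WT retina. Elane, the elastase of neutrophils, had 0 reads in all 12 libraries, and Cxcr2 had 0 in WT. The 15 lymphocyte genes summed to 1.53 to 3.77 CPM in CNV and 1.18 to 1.98 CPM in WT retina. The 16 microglia genes summed to 69.96 to 118 CPM in CNV and 62.4 to 81.5 CPM in WT retina. Of 11 chemokine genes tested 3 rose and 0 fell in the weighted fit (against 3.47% and 1.16% of all genes), with a median log2 change of 0.13 (0.074 without CNV cp-asiNRL replicate 3). Ccl12, a monocyte attractant, spanned 0.0901 to 0.692 CPM (median 0.32) in CNV and 0 to 0.135 CPM (median 0.0361) in WT retina. No WT library reached the 10 scaled reads of the low-value filter for Ccl12. It was tested only through its high CNV libraries, so its change is no support for a rise. Its relative Ccl2 spanned 0.0149 to 0.548 CPM in CNV retina and reached 1.01 CPM in WT cp-asiNRL replicate 1, with 0.0195 CPM or less in the other 5 WT libraries (log2 change 0.10, limma adjusted p = 0.771). Cxcl16, the transmembrane chemokine, spanned 3.51 to 5.89 CPM (median 4.82) in CNV and 3.18 to 4.26 CPM (median 3.67) in WT retina (0.29, weighted limma adjusted p = 0.0388).

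Interferon-induced genes were higher as groups. Of 24 tested interferon response genes 19 rose and 0 fell in the weighted fit (against 3.47% and 1.16% of all genes), with a median log2 change of 0.70. Of 15 guanylate binding proteins and immunity GTPases, which coat the vacuoles of intracellular pathogens, 13 rose and 0 fell (median 0.72). Of 17 class I presentation genes 10 rose and 0 fell (median 0.65), and of 7 class II genes 2 rose and 0 fell (median 0.87). Without CNV cp-asiNRL replicate 3 the class I median was 0.34. The class II median is over the 7 of 9 members that passed the filter on low values, and with no filter it was 0.31. The medians were larger under cp-asiNRL than under vehicle for the interferon list (0.95 and 0.42), the GTPase list (1 and 0.47) and the class I list (0.92 and 0.35). The difference in laser effect between injections was called for 0 genes (limma, 0%, with 1699 at an unadjusted p of 0.05, 6.63%). By library, the 24 interferon genes summed to 144 to 178 CPM in the CNV vehicle libraries, all above the WT vehicle libraries (104 to 116 CPM). In CNV cp-asiNRL libraries they summed to 160, 308 and 526 CPM, against 116 to 178 CPM in WT cp-asiNRL libraries, where the highest was replicate 1.

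Ifit3, one of the proteins that bind foreign RNA, spanned 8.45 to 48.3 CPM (median 9) in CNV and 4.06 to 9.24 CPM (median 5.16) in WT retina (log2 change 1.18, SE 0.29; weighted limma adjusted p = 0.0279). Its 3 CNV vehicle libraries were at 8.45, 8.68 and 9.32 CPM, and the WT vehicle libraries at 4.06, 4.70 and 5.43 CPM. Ddx60, a helicase of RNA sensing, and Oasl2, of the oligoadenylate synthetase family, changed by 1 and 1.19 (weighted limma adjusted p = 0.029 and 0.024). Ifi27 was apart within each injection (log2 change 0.65). Gbp2 spanned 2.48 to 10.9 CPM (median 3.24) in CNV and 1.32 to 2.9 CPM (median 1.57) in WT retina (log2 change 0.99, weighted limma adjusted p = 0.0242), with 0.66 under vehicle and 1.31 under cp-asiNRL. Gbp3 was apart within each injection (log2 change 1), and Gbp6 changed by 0.95. The guanylate binding proteins and the class I heavy chains are families of near-identical genes, so how reads were shared among their members is uncertain. B2m, the common light chain of class I molecules, spanned 7.91 to 68.1 CPM (median 13.2) in CNV and 4.66 to 19.1 CPM (median 5.78) in WT retina (log2 change 1.19, weighted limma adjusted p = 0.0367), and it overlaps Patl2 on the other strand. Nlrc5, the activator of class I genes, and the heavy chain gene H2-Q4 changed by 1.22 and 1.01 (weighted limma adjusted p = 0.0299 and 0.0306). Cd74, the class II invariant chain, spanned 0.955 to 5.99 CPM (median 1.66) in CNV and 0.487 to 1.1 CPM (median 0.62) in WT retina, and H2-Ab1, a class II chain, spanned 0.342 to 3.92 CPM (median 1.07) in CNV and 0.131 to 0.587 CPM (median 0.229) in WT retina. CNV vehicle replicate 2 and CNV cp-asiNRL replicate 3 stood high for both, and the log2 changes were 0.99 and 0.94 (weighted limma adjusted p = 0.0451 and 0.0445).

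The promoters of the interferon-induced genes are shown as background to the lists. The shares below describe how the lists were composed, would be the same whatever the laser did, and give no support to the laser values. A core of the interferon-stimulated response element, GAAA, any 2 bases and GAAA on either strand, was searched in the 250 bases before each gene's start (RefSeq, GRCm38.p6). It occurred in 10 of the 11 guanylate binding and GTPase genes in the table (90.9%), in 9 of 17 interferon response genes (52.9%) and in 3 of 15 class I genes (20%), against 3.46% of 27025 genes. It occurred in 0 of 13 cholesterol synthesis genes. The stretches below are from 6 genes of the interferon and GTPase lists, 100 bases each, 5′ to 3′ on the gene's strand, with the matches in capitals. They lie at chr19:34640754-34640853 (plus strand), chr19:34583357-34583456 (plus strand), chr4:156200835-156200934 (minus strand), chr8:61927987-61928086 (plus strand), chr3:142620554-142620653 (plus strand) and chr3:142559944-142560043 (plus strand) of GRCm38.p6, in the order shown.
Ifit1: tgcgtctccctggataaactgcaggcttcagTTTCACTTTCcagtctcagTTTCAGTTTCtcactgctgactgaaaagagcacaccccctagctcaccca
Ifit3: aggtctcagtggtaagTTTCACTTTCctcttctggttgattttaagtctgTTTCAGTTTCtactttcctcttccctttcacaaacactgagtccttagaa
Isg15: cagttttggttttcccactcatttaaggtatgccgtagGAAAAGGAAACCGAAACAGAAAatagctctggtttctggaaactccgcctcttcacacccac
Ddx60: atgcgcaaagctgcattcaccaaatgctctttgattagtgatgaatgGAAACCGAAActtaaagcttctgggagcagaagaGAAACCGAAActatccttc
Gbp2: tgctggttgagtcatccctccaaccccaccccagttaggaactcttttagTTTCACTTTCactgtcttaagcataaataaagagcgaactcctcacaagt
Gbp3: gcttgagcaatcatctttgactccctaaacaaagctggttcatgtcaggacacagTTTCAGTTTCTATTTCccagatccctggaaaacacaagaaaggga
Where matches overlap, as in Isg15 and Gbp3, the capitals run on. A Stat site, TTCNNNGAA, was in 4 of 18 gliosis genes (22.2%) in 6 of 11 GTPase genes (54.5%), in 1 of 15 genes of the Edn2, Lif and Stat3 list (6.67%) and in 0 of 13 cholesterol synthesis genes, against 8.13% of all genes in the table. A sterol element, TCACNCCAC on either strand, was in 1 of 13 cholesterol synthesis genes (7.69%) and in 1 of 18 gliosis genes (5.56%), against 1.22% of all. The cholesterol synthesis gene was Hmgcs1, whose stretch with the match in capitals lies at chr13:119690164-119690263 (plus strand).
Hmgcs1: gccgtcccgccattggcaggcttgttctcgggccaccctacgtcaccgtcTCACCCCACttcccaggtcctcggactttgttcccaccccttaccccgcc
A match describes letters in these windows and shows no binding.

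**Figure D4:**
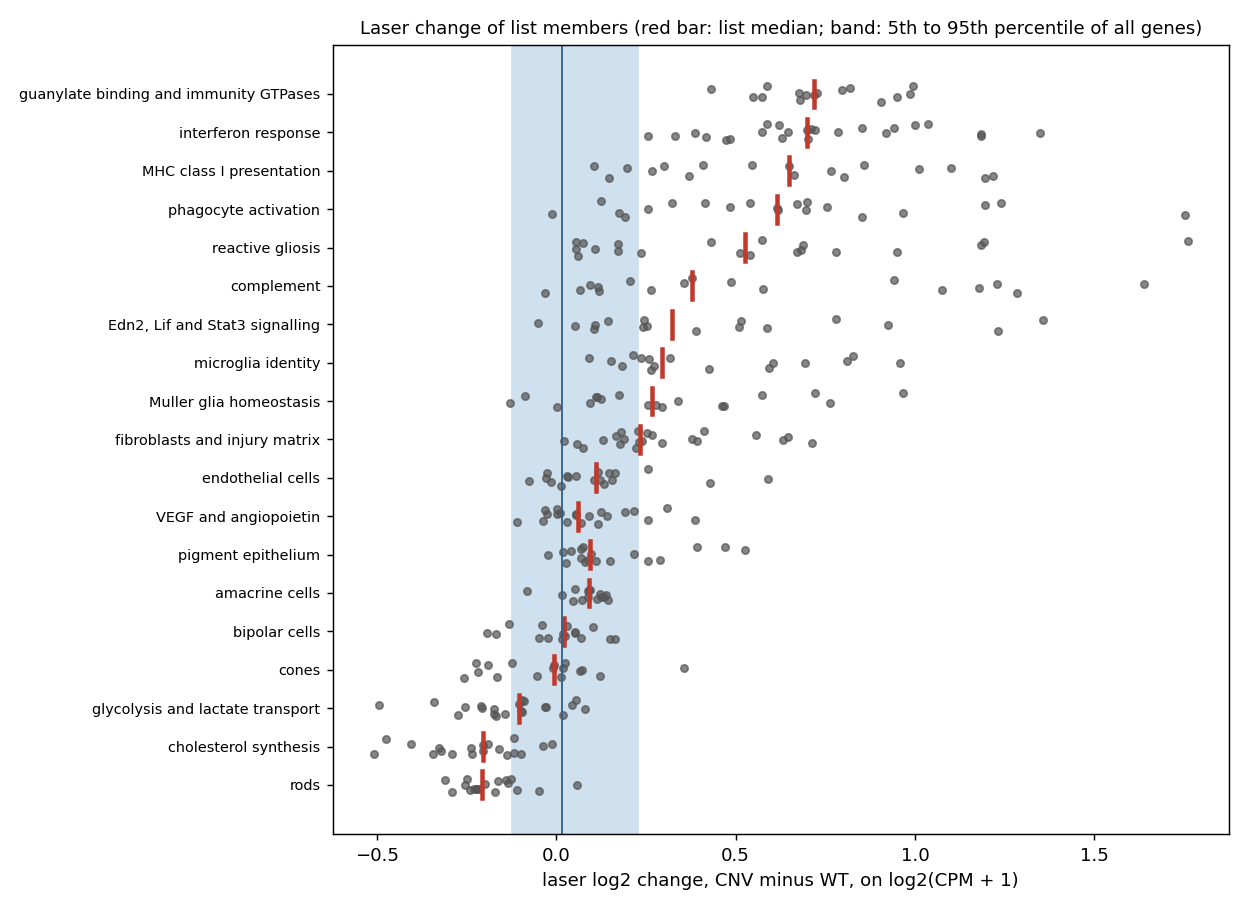
Laser log2 change on log2(CPM + 1), CNV minus WT (horizontal axis), of each tested member of 19 gene lists (rows), with a red bar at each list's median and a band from the 5th to the 95th percentile of all 25619 genes. Interferon, GTPase and class I members lie right of the band for the most part, cholesterol synthesis members and all but 1 rod member lie left of 0, and bipolar, amacrine and cone members lie mostly inside it.

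The group counts were also taken without both uneven libraries, where limma with equal weights called 4.38% of all genes higher and 1.35% lower. Of the gliosis genes 12 of 20 rose, of the complement genes 10 of 17, of the phagocyte activation genes 12 of 20 and of the microglia genes 9 of 16. Of the interferon response genes 18 of 24 rose, of the GTPases 15 of 15 and of the class I genes 9 of 17. Of the rod genes 9 of 18 fell. With all libraries, 2 of 20 gliosis, 2 of 24 interferon response, 2 of 15 GTPase and 1 of 16 microglia genes were higher and apart within each injection. The share over all genes was 0.761%. Of the complement, phagocyte activation, class I and class II genes 0 were so. Of the rod genes 0 were lower and apart within each injection, against 1.12% of all genes.

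Photoreceptor genes had smaller log2 changes. Of 18 rod genes 17 were below 0, against 10962 of all 25619 genes, with a median log2 change of -0.21. In the weighted fit 3 rod genes fell and 0 rose (against 1.16% and 3.47% of all genes). Rom1, a rim protein of the outer segment disc, spanned 394 to 672 CPM (median 574) in CNV and 542 to 837 CPM (median 663) in WT retina and fell in the weighted fit (log2 change -0.31, weighted limma adjusted p = 0.0296), and it overlaps Eml3 on the other strand. Pde6g, the inhibitory subunit of the rod phosphodiesterase, changed by -0.23 (0.0465). The rod factor Nr2e3 had a log2 change of -0.25 and its activator Nrl of -0.24, neither passing in the weighted fit (0.0609 and 0.0721). Nrl is the target of the injected RNA, and it spanned 429 to 521 CPM in CNV vehicle against 501 to 565 CPM in WT vehicle libraries, and 279 to 477 CPM in CNV cp-asiNRL against 403 to 462 CPM in WT cp-asiNRL libraries. Of 16 cone genes 3 fell and 0 rose in the weighted fit, with a median of -0.0069. Opn1sw, the short-wave cone opsin, spanned 156 to 227 CPM (median 194) in CNV and 179.7 to 267 CPM (median 229) in WT retina (log2 change -0.22, weighted limma adjusted p = 0.0482; exact permutation p = 0.035), and overlaps Calu on the other strand. Kcne2, a potassium channel subunit, changed by -0.26 (0.0253). Gnb3, the transducin subunit of cones and ON bipolar cells, named after its value was seen, had a log2 change of 0.36 and did not pass (0.0521).

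The inner neuron lists had medians near 0, with 0.02 for 16 bipolar, 0.09 for 15 amacrine, 0.08 for 9 horizontal and 0.06 for 16 ganglion cell genes. In the weighted fit the amacrine gene Pax6 (0.12) and the horizontal cell gene Onecut2 (0.26) rose and 0 fell. Müller glia homeostasis genes were higher, 10 of 18 rising and 0 falling in the weighted fit (median 0.27, against 3.47% and 1.16% of all genes). Clu, a secreted chaperone, spanned 112 to 332 CPM (median 202) in CNV and 95.5 to 152 CPM (median 108) in WT retina (log2 change 0.76, weighted limma adjusted p = 0.029), and Kcnj10, the potassium channel of Müller glia, changed by 0.34 (0.0238).

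Of 20 VEGF and angiopoietin genes 3 rose and 0 fell in the weighted fit (against 3.47% and 1.16% of all genes), with a median log2 change of 0.06. Vegfa, the ligand, spanned 43.1 to 53.5 CPM (median 49.4) in CNV and 41.8 to 54.8 CPM (median 51) in WT retina, with a log2 change of -0.024 (SE 0.059, limma adjusted p = 0.861; exact permutation p = 0.675). It was -0.14 under vehicle and 0.093 under cp-asiNRL. Kdr, its receptor, spanned 104 to 164 CPM (median 130.3) in CNV and 86.6 to 111 CPM (median 103) in WT retina (log2 change 0.39, weighted limma adjusted p = 0.0307), and the co-receptor Nrp1 changed by 0.31 (0.0286). Of 18 endothelial genes 1, Ly6a, rose in the weighted fit (0.43, 0.0204), at 1.57 to 3.06 CPM (median 2.15) in CNV and 1.13 to 1.58 CPM (median 1.32) in WT retina. Cdh5, the junction cadherin of endothelium, had a log2 change of 0.25 and did not pass (0.057). The 18 endothelial genes summed to 87.4 to 119 CPM in CNV and 90.8 to 98.3 CPM in WT retina. Of 22 fibroblast and injury matrix genes 8 rose and 0 fell (median 0.23). Thbs1, a matrix glycoprotein that restrains vessel growth, spanned 3.27 to 6.65 CPM (median 5.66) in CNV and 2.42 to 4.02 CPM (median 2.83) in WT retina (0.65, weighted limma adjusted p = 0.0258). Of 18 pigment epithelium genes 1, Tyr, the enzyme of melanin synthesis, rose (0.39, weighted limma adjusted p = 0.0388), and Rpe65, the visual cycle isomerase, had 0.22 (0.524). The pigment epithelium genes summed to 293 to 340 CPM in CNV and 270 to 311 CPM in WT retina, and the part of attached epithelium in these values was not tested.

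Optc, the glycoprotein opticin of the vitreous, spanned 0.387 to 1.96 CPM (median 1.38) in CNV and 0.3 to 0.574 CPM (median 0.393) in WT retina (log2 change 0.63, weighted limma adjusted p = 0.0225; exact permutation p = 0.015). The lowest CNV value was in CNV cp-asiNRL replicate 2 and lay within the WT range. The 18 lens and ciliary body genes, Optc among them, summed to 10.2 to 26.6 CPM in CNV and 8.47 to 13 CPM in WT retina. The part of lens or ciliary tissue in the Optc value was not tested. Folh1, a folate hydrolase, spanned 21.1 to 30.9 CPM (median 25.5) in CNV and 14 to 30.6 CPM (median 18.9) in WT retina, with 0.71 under vehicle and 0.11 under cp-asiNRL. The difference between the injections was not called for Folh1 or Optc (limma interaction adjusted p = 0.743 and 0.743).

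The vehicle and cp-asiNRL libraries share no library, so the laser change was also read in each set of 6 on its own. With the vehicle libraries alone, tested over the same 25619 genes, limma called 28 genes higher (0.109%) and 11 lower (0.0429%), and with the cp-asiNRL libraries alone 0 genes of either direction (0%), with 3494 at an unadjusted p of 0.05 (13.6%). Of the 28 higher genes all 28 were also above 0 in the cp-asiNRL libraries, against 62.5% of all genes, and 13 did so at an unadjusted p of 0.05, against 9.38%. Of the 11 lower genes all 11 were below 0, against 37.5%, and 7 did so at an unadjusted p of 0.05, against 4.26%. The CNV and WT cp-asiNRL libraries did not overlap, with the same sign, for 2 of the 28, against 10.7% of all genes, and for 4 of the 11, against 7.19%. The median log2 change of the 28 was 0.71 under vehicle and 0.54 under cp-asiNRL, and that of the 11 was -0.47 and -0.29. The higher genes held Ifit1, Ifit3, Rsad2, Ddx60, Gbp2, Gbp3 and Gbp6 of the interferon and GTPase lists, with Optc, Ccn2, Folh1 and Slc16a12, and the lower held Insig1 with its overlapping Gm35223, Hmgcs1, Hk2 and Pkm. Picked after their values were seen, Gpnmb, a lysosomal glycoprotein of phagocytes, had log2 changes of 1.16 under vehicle and 1.32 under cp-asiNRL, and Fbln1, a matrix fibulin, had 1.45 and 0.48. Over all 25619 genes the sign was the same under both injections for 59.5%, with a Pearson correlation of 0.54 and a Spearman correlation of 0.35 between both changes across genes, which are not independent replicates. The interaction of laser and injection was called for 0 genes by limma with all libraries and with sample weights, and for 140 without both uneven libraries.

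**Figure D5:**
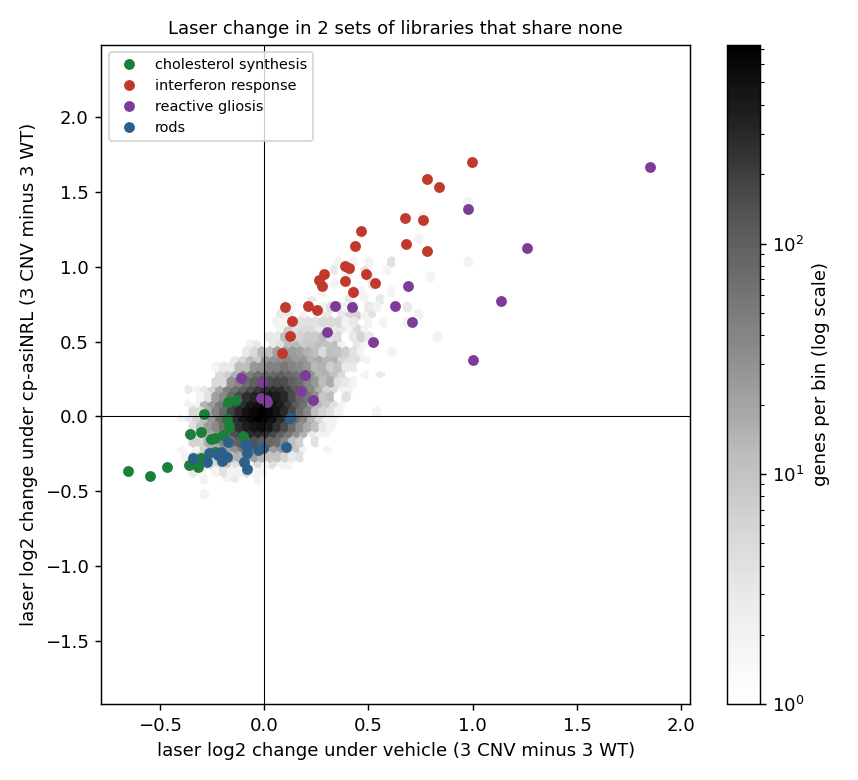
Laser log2 change on log2(CPM + 1) under vehicle (horizontal axis, 3 CNV minus 3 WT libraries) and under cp-asiNRL (vertical axis, 3 other CNV minus 3 other WT libraries), grey for the number of genes per bin and colours for the members of 4 lists. Cholesterol synthesis members lie mostly below 0 on both axes, 16 of 19 on both, and interferon response members lie above 0 on both.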

How the data were processed

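RNA of 12 mouse retina libraries was sequenced with a stranded mRNA kit (TruSeq Stranded mRNA, per the labels). HISAT2 2.1.0, featureCounts 1.6.0 and the mm10 build are named in the submitters' processing notes, without their settings. The deposited table holds a signal per gene, reads divided by the length that the table itself gives, with gene positions per the file headers. Positions printed from it fitted GRCm39, and promoters come from RefSeq GRCm38.p6; no position was converted. Multiplying each value by the length gave whole reads for all 482424 values (tolerance 1e-06). Every recovered count is therefore the authors' signal times length, not a deposited count.

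The length column equals the span from start to end for 40200 of 40200 genes at 1 locus, so introns and overlapping genes were included. In 2474 genes nested on the other strand of a host above 1000 reads the read density was 0.784 of the host's in the median, so strands could not be separated.

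Levels were scaled to the library total (CPM). A gene was tested where 3 or more libraries held 10 reads, scaled to the median library, and all libraries together held 15, which left 25619 of 40202. limma 3.58.1 (R 4.3.3) was fitted to log2(CPM + 1) with laser and injection as terms, and Benjamini-Hochberg adjustment over all tested genes. The design named a negative binomial count test only if the deposited values were raw counts. They are per length, so it was not run, although it could have been applied to the recovered reads. limma voom on recovered reads, with and without sample quality weights, stood in its place. The genes named were those called, the 12 of smallest p in each direction with more than a bare gene model name whose log2(CPM + 1) averaged 1 or more, a set of 18 single genes, and in each list described the 4 members of smallest p. The 12 in each direction also had to have the same sign under both injections, so that agreement is no finding. The members, gene lists and single genes were chosen with earlier results of these data known, and 645 of 648 list entries were in the table. Some genes that the rule named are not reported here. No library was left out or imputed except where stated. Replicate numbers shared between groups did not pair libraries. The alternatives were other scalings, filters, pseudocounts and models, a replicate block, removal of the trend with gene span, and each library left out.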

Additional observations from a re-analysis of the deposited data

Results flagged for a closer look

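Of 166 groups of 6 libraries examined, for 83 genes in CNV and in WT retina, 32 held a highest library whose gap to the next exceeded Dixon's 95% critical value for 6 values. For normal values chance gives such a gap, at either end, in about 1 in 20 groups. These groups mix both injections and their genes vary together, so that share is only a rough guide. In 23 of the 32 the library was WT cp-asiNRL replicate 1. Its gliosis and Stat3 genes stood above the next WT library, Gfap at 16.3 against 8.81 CPM, Serpina3n at 12.9 against 2, Vim at 31.8 against 25.8, Osmr at 17.6 against 9.48, Socs3 at 6.20 against 1.93 and Lcn2 at 1.08 against 0.539 CPM. Its complement and phagocyte genes did so too, with C4b at 12.9 against 5.46 CPM, C1qb at 4.13 against 1.58, Csf1r at 6.09 against 4.21, Cx3cr1 at 2.44 against 1.58, Apoe at 225 against 141, Ctss at 15.9 against 4.04 and Fcgr1 at 0.642 against 0.337 CPM. Among interferon and presentation genes Oasl2 was at 6.31 against 3.51 CPM, Ifit3 at 9.24 against 5.43, Ddx60 at 12.4 against 6.17, Gbp2 at 2.90 against 1.67, Nlrc5 at 3.36 against 1.2, B2m at 19.1 against 8.02, H2-Q4 at 2.71 against 1.41 and Cd74 at 1.1 against 0.682 CPM. Nrp1 was at 31.6 against 28.2 CPM and Ccl2 at 1.01 against 0.0195 CPM.

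In 7 groups the library was CNV cp-asiNRL replicate 3, against the next CNV library. These were Ifit3 at 48.3 against 21.2 CPM, Gbp3 at 15.9 against 6.82, B2m at 68.1 against 30.2, H2-Q4 at 11.9 against 5.04, Dusp6 at 13.8 against 11.2, Atp10a at 19.4 against 17.3 and Selplg at 1.96 against 1.27 CPM. Lcn2 stood apart in CNV vehicle replicate 2, at 4.34 against 1.75 CPM, and Tyr in CNV vehicle replicate 3, at 2.37 against 1.55 CPM.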

How the results depend on the processing

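With all libraries weighted alike 0 genes were called higher and 1 lower. Trimmed-mean scaling and median-of-ratios scaling each gave 1 higher, and removal of the trend with gene span gave 1 higher and 2 lower. With no filter, with no injection term and in the cp-asiNRL libraries alone, 0 were lower. The vehicle libraries alone, with the filter reapplied to leave 24410 genes, gave 30 higher and 12 lower, and sample quality weights 890 higher and 296 lower. Leaving out each library in turn gave 0 to 1621 higher and 1 to 582 lower. The highest counts came without CNV cp-asiNRL replicate 2. Leaving out CNV vehicle replicate 1 gave 1 higher, and leaving out WT cp-asiNRL replicate 3 gave 2 lower. Without both WT cp-asiNRL replicate 1 and CNV cp-asiNRL replicate 2, 1127 were higher, 349 were lower and 140 differed between injections, with the filter reapplied. The number differing between injections was 0 under the other alternatives. The cause of these shifts was not tested.

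The replicate block gave 0 higher and 0 lower. Deviations of same-numbered libraries correlated between -0.515 and 0.401, so the libraries share only a number. Gm30589 had an adjusted p of 0.0539 under it.

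Alternatives added after seeing the data follow. The weighted fit gave 1183 higher and 635 lower with trimmed-mean scaling, against 890 and 296. It gave 3117 and 980 without CNV cp-asiNRL replicate 2, and 3070 and 873 without both libraries. The vehicle-called genes numbered 128 higher (124 with the same sign under cp-asiNRL) and 29 lower (26) with trimmed-mean scaling, and 87 (82) and 27 (26) with the span trend removed. Counts of genes whose libraries do not overlap stayed within 1.5 times under the scalings tried.

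Of single-gene values, the log2 change of Vegfa changed sign without CNV vehicle replicate 1 and in the cp-asiNRL libraries alone (0.093). It lay between -0.067, without WT cp-asiNRL replicate 3, and 0.028 when each library was left out in turn. Of the values of named genes under the alternatives, 1990 kept their side of the threshold, 240 passed where the reported fit did not and 4, all of Gm30589, no longer passed. Of 1053 list medians under the alternatives 51 moved by more than the spread between replicates. They were 16 under quality weights, 14 under voom, 10 with a pseudocount of 0.1, 5 and 3 in the vehicle and cp-asiNRL libraries alone, 2 with a pseudocount of 5 and 1 with no filter. The levels near 1 CPM, such as those of class II genes, rest on few reads.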

Other observations

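Some gene groups outside the comparisons above had members that passed the weighted fit. Of 22 immediate early genes 4 rose and 0 fell, among them Atf3 (0.58 log2), Egr1 (0.47) and Fos (0.40), factors induced within minutes of cell stimulation, with a list median of 0.18 (0.12 without CNV cp-asiNRL replicate 1). Over all genes the weighted fit called 3.47% higher and 1.16% lower. Of 15 inflammasome and lytic death genes 4 rose and 0 fell (median 0.22), namely Nlrp1b (0.50), Zbp1 (0.47), Naip2 (0.40) and Casp1 (0.29), the protease that matures interleukin-1 beta. Of 19 cell cycle genes Mki67 (0.53) and Cdk1 (0.16) rose and 0 fell (median 0.08). Mki67, a proliferation marker, spanned 0.178 to 1.63 CPM (median 0.509) in CNV and 0.039 to 0.168 CPM (median 0.123) in WT retina. No WT library reached the 10 scaled reads of the low-value filter for Mki67. It was tested only through its high CNV libraries, so its call is no support for a rise.

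Of 11 small leucine-rich proteoglycan genes 4 rose and 0 fell (median 0.22), with Fmod (0.46), Prelp (0.44) and Dcn (0.27), collagen-binding proteins of the matrix, beside Optc. Of 19 antioxidant genes Slc7a11 (0.47), the cystine carrier, and Gpx3 (0.42), a secreted peroxidase, rose and 0 fell. Of 20 unfolded protein and integrated stress genes limma voom with sample weights called 0. In the unweighted fit 3 of them were lower at an unadjusted p of 0.05, against 5.98% of all genes (median -0.025). Of 13 mitochondrially encoded genes the weighted fit called 0. In the unweighted fit 3 of these were higher at an unadjusted p of 0.05, against 10.9% of all genes (median 0.08).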
